A study of Homo sapiens with 14 samples.

Results

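Here FICC-Seq of the tRNA methyltransferase TRMT2A was compared between HEK293 and HAP1 cells, using the 6 FICC-Seq libraries of the 14 libraries of the study. Both are established human cell lines, HEK293 of embryonic kidney origin and HAP1 of near-haploid karyotype, and 3 libraries came from each. All 6 libraries shared the same design: the cells were grown with 100 µM 5-fluorouracil (5FU) for 24 h, endogenous TRMT2A was immunoprecipitated from unmodified cells, and no UV light was used. The condition field of the labels reads untreated for all 14 libraries, and the 5FU exposure is taken from their description and the study's methods. The HEK293 cells were kept in DMEM and the HAP1 cells in IMDM, and the deposited files of the cell lines carry different dates, so cell line, medium and run cannot be told apart. The other libraries were read beside them: 3 HEK293 and 3 HAP1 libraries of iCLIP, in which UV light links the same endogenous protein to RNA, and 2 HEK293 libraries of miCLIP, in which an introduced FLAG-tagged TRMT2A with a catalytic glutamate changed to alanine stays linked to its target without 5FU or UV.

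TRMT2A is the enzyme that methylates the uridine at base 54 of cytosolic tRNAs to 5-methyluridine, in the T-loop that most tRNAs share. In FICC-Seq, 5FU taken up into RNA traps the enzyme on the base it acts on, and the cDNAs made from the RNA in the complex end at or beside that base. Reverse transcription is also known to stop at base 58, an adenosine of the same loop that is commonly methylated to 1-methyladenosine. Human tRNA genes are present in several copies per anticodon, so a read can be given to a single copy only where the copies differ within the bases it covers. Most cDNAs at the tRNA loci here ended at bases 53, 54 or 58. They covered the 3′ end of the tRNA from there on, with the trailer where it was present. The trailer is the short stretch of the precursor that follows the last encoded base. Genes with the same anticodon are grouped below as an isoacceptor.

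The HEK293 libraries held 23721, 15982 and 28429 cDNA counts in replicates 1, 2 and 3, and the HAP1 libraries held 29728, 36009 and 38957. A feature at 0 in all 3 libraries of a cell line has an upper limit of 3 counts over the group, which is 44.03 CPM (cDNA counts per 1000000 counts of the library) in HEK293 and 28.7 CPM in HAP1, for counting error only. In total, 248 tRNA loci were formed from the clusters listed as tRNA by the study. Of these, 225 held at least 10 counts over the 6 libraries and were tested, and 23 were not. In the same table, 424 positions outside tRNA and 21 tRNA genes found by sequence alone were tested, 670 features in all. Of the 670, 189 were called (adjusted p below 0.05, limma voom with Benjamini-Hochberg adjustment), 28.2% of those tested, and 291 (43.4%) had HEK293 and HAP1 libraries that did not overlap in CPM. The study calls the replicates biological. In the labels, HEK293 replicates 1 and 3 carry the same in-line barcode. They were the closest pair of replicates but differed by more than sampling noise (chi-square per degree of freedom 2.01), and were kept as separate libraries.

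The copies of Leu-CAA show what sets the loci apart. Bases 54 to 73 of the gene are in lower case, and the 10 bases that follow in the genome are in capitals, 5′ to 3′ in hg19. Base 73 is the last encoded base before the CCA end that is added to mature tRNA.
tRNA-Leu-CAA-1-1, chr6:28863990-28864019, minus strand: ttcgaatcccacttctgacaCATACTTTTC
tRNA-Leu-CAA-1-2, chr6:28908915-28908944, plus strand: ttcgaatcccacttctgacaCAACTATCTT
tRNA-Leu-CAA-2-1, chr6:27573407-27573436, minus strand: ttcgaatcccacttctgacaCAGCCTGATC
tRNA-Leu-CAA-3-1, chr6:27570338-27570367, minus strand: ttcgaatcccacttctgacaCAGCTATTTT
tRNA-Leu-CAA-4-1, chr1:249168140-249168169, plus strand: ttcgaatcccacttctgacaCATTCGTTTT
The 5 copies are identical from base 54 to base 73 and differ in the bases that follow. Of the 228 loci whose base 54 was found in the sequence, 174 shared bases 54 to 73 with at least 1 other locus. Copies of Leu-AAG and Gly-CCC that were called in opposite directions are shown in the same way.
tRNA-Leu-AAG-2-1, chr5:180614763-180614792, plus strand: ttcgaatcccaccgctgccaGTTTGTGGTA
tRNA-Leu-AAG-3-1, chr6:28956841-28956870, plus strand: ttcaaatcccaccgctgccaAGTACTTTTC
tRNA-Gly-CCC-1-2, chr1:17188467-17188496, plus strand: ttcaattcccggccaatgcaAAAGGGTCTT
tRNA-Gly-CCC-4-1, chr1:17004756-17004785, minus strand: ttcaattcccggccactgcaCGTGGTTGTT

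Individual tRNA gene copies differed between the cell lines in both directions. Of 225 tRNA loci, 43 were called, 19.1%, with 26 higher in HEK293 (11.6%) and 17 higher in HAP1 (7.56%). By range, 67 loci (29.8%) did not overlap in CPM between the cell lines, beside 43.4% over all features. Leaving out HEK293 replicate 1 reduced the called loci to 20 (14 higher in HEK293 and 6 in HAP1), and leaving out HEK293 replicate 3 to 23 (16 and 7). Over all 225 loci the median log2 difference of HAP1 minus HEK293 was −0.10.

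**Figure D1:**
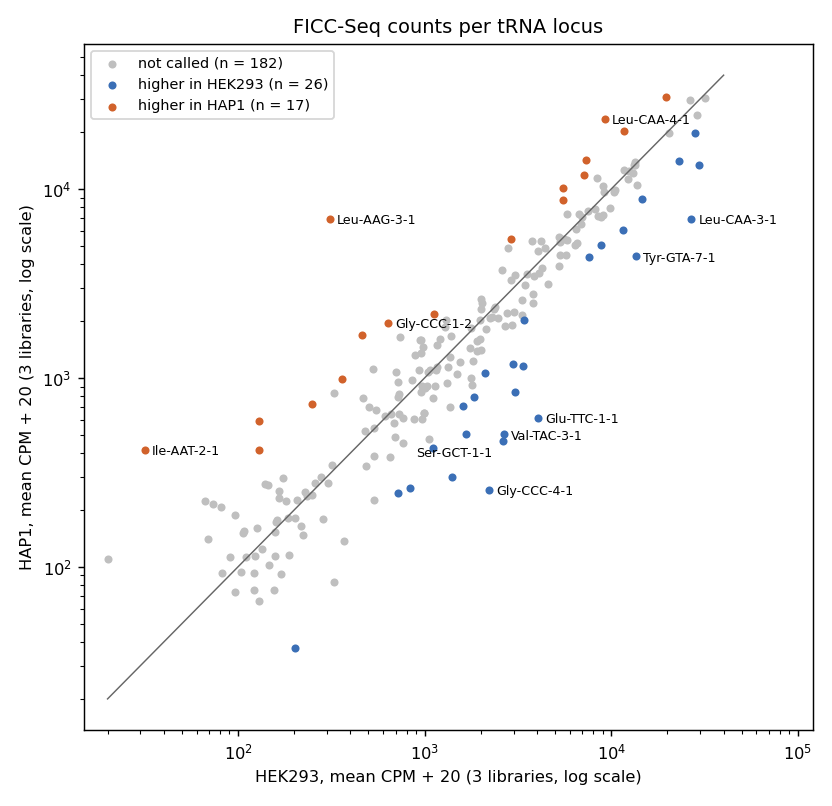
Mean CPM + 20 of each of the 225 tested tRNA loci in the 3 HEK293 (x axis) and the 3 HAP1 FICC-Seq libraries (y axis), both on log axes, with the line of equality. Coloured points are the 26 loci called higher in HEK293 and the 17 called higher in HAP1; tRNA-Leu-AAG-3-1 lies farthest above the line among the loci with over 1000 CPM in HAP1.

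The locus with the largest called difference toward HAP1 was tRNA-Leu-AAG-3-1, a leucine tRNA gene on chromosome 6 (28956779 to 28956860, plus strand) with no annotated gene on its strand. It held 4, 5 and 11 counts in the HEK293 libraries and 186, 191 and 358 in the HAP1 libraries. All HAP1 libraries lay far above all HEK293 libraries, and the level was 22.9-fold higher in HAP1 (log2 4.52, SE 0.51, adjusted p = 6.31e-05 by limma voom). Its share of the Leu-AAG counts was on average 1.92% in HEK293 and 34.4% in HAP1. In iCLIP, the same locus held 0, 5 and 2 counts in HEK293 and 53, 30 and 57 in HAP1. In miCLIP from HEK293 it held 18 and 26 counts.

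Of the 5 copies of Leu-CAA, which carry an intron and are on chromosomes 6 and 1, 4 were called, 2 in each direction. tRNA-Leu-CAA-3-1 held 686, 403 and 745 counts in HEK293 against 208, 281 and 232 in HAP1, which is 26780 ± 1918 CPM against 6919 ± 927 CPM (SD, n = 3). It had the smallest adjusted p of all features (log2 −1.97, SE 0.14, adjusted p = 2.09e-06 by limma voom). tRNA-Leu-CAA-2-1, the neighbouring gene on the same strand, held 666, 399 and 880 counts in HEK293 and 625, 674 and 756 in HAP1. In CPM it was also higher in HEK293 (log2 −0.54, SE 0.10, adjusted p = 0.00231 by limma voom). In the other direction, tRNA-Leu-CAA-4-1 held 217, 168 and 227 counts in HEK293 and 725, 827 and 898 in HAP1, from 9215 ± 1265 to 23468 ± 797 CPM (log2 1.38, SE 0.14, adjusted p = 2.40e-05). tRNA-Leu-CAA-1-1 was likewise higher in HAP1, with 482, 314 and 530 counts against 993, 1131 and 1071 (log2 0.66, adjusted p = 0.00113). The remaining copy, tRNA-Leu-CAA-1-2, had the highest level of all loci and was not called. It held 798, 474 and 923 counts in HEK293 and 985, 1045 and 1104 in HAP1, with a log2 difference of −0.10 (adjusted p = 0.46) that took the value 0.01 with median-of-ratios size factors.

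Within Leu-CAA, the share of tRNA-Leu-CAA-3-1 was on average 23.2% in HEK293 and 6.23% in HAP1, and that of tRNA-Leu-CAA-4-1 was 8.01% and 21.2%. Shares of 1 isoacceptor sum to a fixed total, so the copies do not move independently. Of the 23 isoacceptors with any called locus, 7 had loci called in both directions: Glu-TTC, Gly-CCC, Ile-AAT, Leu-AAG, Leu-CAA, Lys-CTT and Tyr-GTA.

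**Figure D2:**
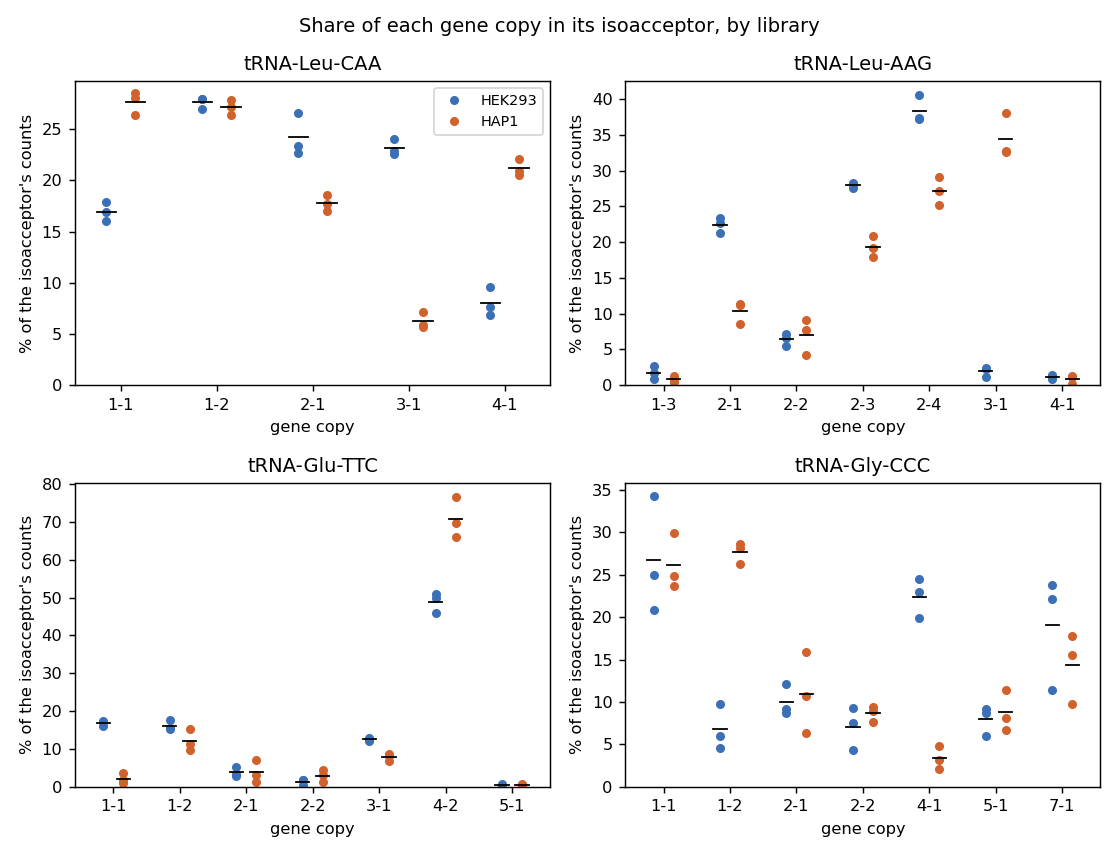
Percent of the FICC-Seq counts of an isoacceptor held by each of its gene copies, for Leu-CAA, Leu-AAG, Glu-TTC and Gly-CCC; points are libraries, bars are means of 3 libraries per cell line. tRNA-Leu-AAG-3-1 rises from a mean of 1.92% in HEK293 to 34.4% in HAP1, and tRNA-Glu-TTC-1-1 drops from 16.9% to 2.13%.

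For Glu-TTC, which reads glutamate codons, the copies tRNA-Glu-TTC-1-1 on chromosome 2 and tRNA-Glu-TTC-4-2 on chromosome 1 were called in opposite directions. tRNA-Glu-TTC-1-1 held 105, 57 and 117 counts in HEK293 and 8, 35 and 21 in HAP1 (log2 −2.90, adjusted p = 0.000252 by limma voom). tRNA-Glu-TTC-4-2 held 311, 163 and 335 in HEK293 and 671, 634 and 791 in HAP1 (log2 0.75, adjusted p = 0.0031). The libraries of the cell lines did not overlap in CPM at either copy, and the share of tRNA-Glu-TTC-4-2 was 48.9% in HEK293 and 70.7% in HAP1. For Gly-CCC, tRNA-Gly-CCC-4-1 held 55, 45 and 41 counts in HEK293 and 5, 13 and 7 in HAP1 (log2 −3.10, adjusted p = 0.000615), with shares of 22.4% and 3.38%. tRNA-Gly-CCC-1-2, in an intron of CROCC, held 11, 11 and 20 counts against 45, 76 and 86 (log2 1.64, adjusted p = 0.00628), with shares of 6.76% and 27.7%. Its call did not hold without HEK293 replicate 1 (adjusted p = 0.0675).

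Tyrosine tRNAs, all of which carry introns, had 3 of the 8 loci with the smallest adjusted p among those higher in HEK293. tRNA-Tyr-GTA-5-4, in a cluster on chromosome 14, held 644, 479 and 896 counts in HEK293 and 370, 497 and 531 in HAP1 (log2 −1.15, adjusted p = 1.76e-05 by limma voom). tRNA-Tyr-GTA-7-1, in the same cluster, held 307, 163 and 500 against 129, 153 and 177 (log2 −1.66, adjusted p = 0.000187). tRNA-Tyr-GTA-2-1 on chromosome 2, in an intron of AGBL5, held 558, 330 and 705 against 402, 494 and 583 (log2 −0.73, adjusted p = 0.000675). Each of the 3 was higher in every HEK293 library than in any HAP1 library once scaled to the library total. Of the 12 Tyr-GTA loci tested, 4 were called higher in HEK293 and 2, tRNA-Tyr-GTA-6-1 and tRNA-Tyr-GTA-8-1 on chromosome 6, higher in HAP1. The latter were named after their values were seen.

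The other loci with the smallest adjusted p belonged to serine, valine, isoleucine, leucine and lysine tRNAs. tRNA-Ser-GCT-1-1 on chromosome 6 held 50, 60 and 56 counts in HEK293 and 11, 19 and 17 in HAP1 (log2 −2.40, adjusted p = 0.00102 by limma voom). tRNA-Val-TAC-3-1 on chromosome 10 held 70, 40 and 69 against 13, 29 and 8 (log2 −2.62, adjusted p = 0.00104). Both were higher in each HEK293 library than in any HAP1 library. Among loci higher in HAP1, tRNA-Ile-AAT-2-1 held 0, 0 and 1 counts in HEK293 and 9, 18 and 15 in HAP1 (log2 3.63, adjusted p = 0.0031), a call that did not hold without HEK293 replicate 1 (adjusted p = 0.0821) or 2 (0.0749). tRNA-Leu-CAG-1-6 on chromosome 1 held 121, 100 and 144 against 302, 328 and 429 (log2 0.91, adjusted p = 0.00353). tRNA-Lys-CTT-1-2, in an intron of MORF4L1, held 157, 133 and 186 against 359, 381 and 501 (log2 0.76, adjusted p = 0.00615), and was not called without HEK293 replicate 1 (0.0665) or 3 (0.0595). At these 3 loci, too, the cell lines did not overlap.

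Of the 5 loci with the most counts, tRNA-Leu-CAG-2-2 on chromosome 16 and tRNA-Met-CAT-6-1 on the same chromosome were not called. tRNA-Leu-CAG-2-2 held 609, 356 and 878 counts in HEK293 and 850, 1091 and 1141 in HAP1 (log2 0.12, adjusted p = 0.428). tRNA-Met-CAT-6-1, an elongator methionine tRNA, held 765, 399 and 824 against 767, 870 and 941 (log2 −0.24, adjusted p = 0.0789 by limma voom). With the replicate number as a block its adjusted p was 0.0369, and without HEK293 replicate 2 it was 0.024. The initiator methionine tRNA, whose base 54 is an adenosine and not a uridine, was at or near 0 throughout. tRNA-iMet-CAT-1-1 held 0 counts in each HEK293 library and 0, 6 and 4 in HAP1, but 296, 205 and 176 in HEK293 iCLIP and 103, 126 and 146 in HAP1 iCLIP. The other locus with an adenosine there, tRNA-iMet-CAT-1-5, held 0 counts in all 6 FICC-Seq libraries.

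Lists of loci are read beside the shares over all loci, 11.6% higher in HEK293 and 7.56% higher in HAP1. Of 24 Ser loci tested, 7 were higher in HEK293 and 0 in HAP1 by limma voom (8 and 0 at an unadjusted p under 0.05), with a median log2 difference of −0.51 beside −0.10 over all loci. Of 21 Ala loci, 3 were higher in HAP1 and 0 in HEK293 (3 and 0 unadjusted), with a median of 0.30. Of 24 Leu loci, 4 were higher in HEK293 and 5 in HAP1, with a median of −0.07. For Cys, 2 of 9 tested loci were called, both higher in HEK293. A single locus, also higher in HEK293, was called for Arg (of 12 tested), Asn (8), Val (7), Phe (6) and Met (5). The called Arg and Asn loci were not called by limma trend, and of the 2 Cys loci 1 was. Families with introns (Tyr-GTA, Leu-CAA, Ile-TAT and Arg-TCT) had 6 loci higher in HEK293 and 4 in HAP1 of 25 tested. The leucine and serine tRNAs with a long variable arm had 11 and 5 of 48. Of 153 tested loci that share bases 54 to 73 with another locus, 17 were higher in HEK293 and 13 in HAP1, and of 52 tested loci with an end of their own 8 and 2.

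At the level of isoacceptors, the cell lines differed less in number of calls. Of 46 isoacceptors tested, 2 were called (4.35%), Tyr-GTA and Ser-TGA, and both were higher in HEK293. None was called higher in HAP1 by limma voom or by limma trend, and 2 had an unadjusted p under 0.05 in that direction. By range, 15 isoacceptors (32.6%) did not overlap between the cell lines. Tyr-GTA had 107162, 102428 and 124450 CPM in HEK293 and 71818, 74676 and 84272 in HAP1, so every HEK293 library was above every HAP1 library (log2 −0.54, 95% interval −0.77 to −0.31, adjusted p = 0.0118). Ser-TGA had 7124, 8197 and 6507 CPM in HEK293 and 2758, 3305 and 2670 in HAP1, also with no overlap (log2 −1.29, 95% interval −1.84 to −0.74, adjusted p = 0.0118). Both calls were lost without HEK293 replicate 1 (adjusted p = 0.0664) or 3 (0.0583), which left 0 called isoacceptors. Tyr-GTA was also not called with tRNA counts as library size (log2 −0.44, adjusted p = 0.0714).

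Leu-CAA, with the highest level of the isoacceptors in uniquely mapped counts, had 120105, 109999 and 116255 CPM in HEK293 and 118945, 109917 and 104243 in HAP1. The ranges overlapped, and the log2 difference was −0.07 with a 95% interval of −0.26 to 0.12 (adjusted p = 0.701 by limma voom), taking the values 0.04 and 0.06 under the other scalings. Lys-CTT had a log2 difference of 0.04 (adjusted p = 0.782), Leu-CAG of 0.25 (0.226) and Ile-AAT of −0.22 (0.243), and none of these was called.

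**Figure D3:**
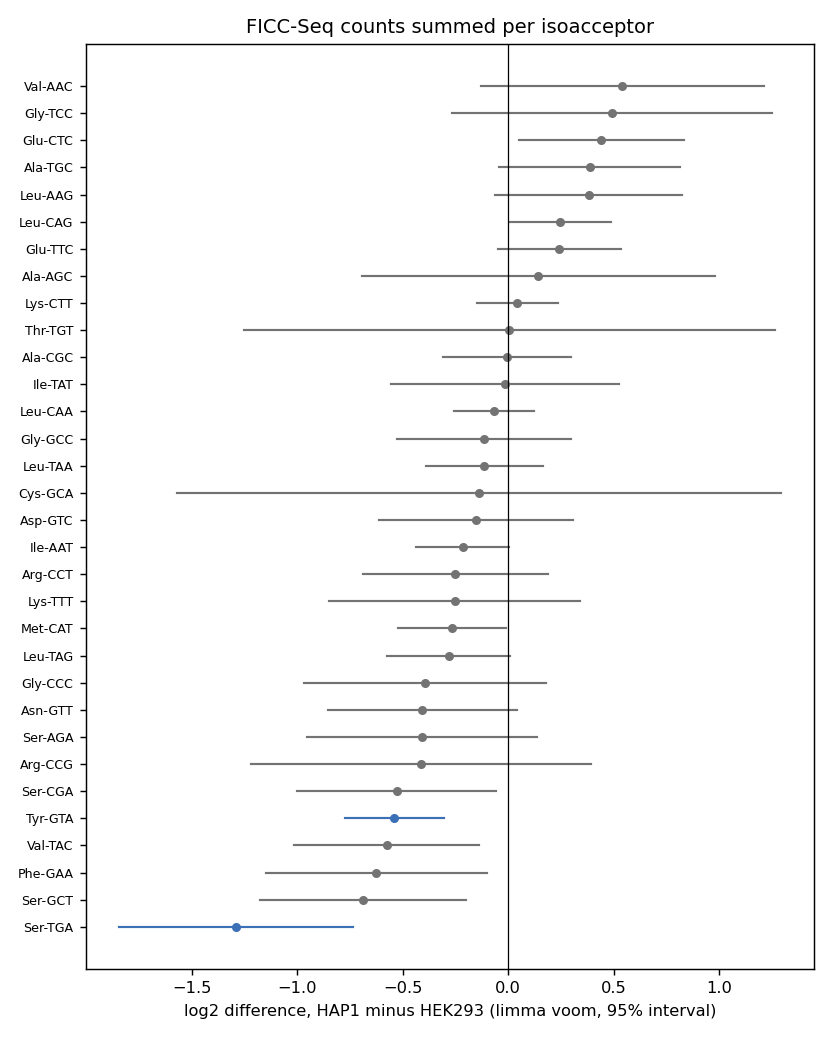
Log2 difference in CPM of HAP1 minus HEK293 with its 95% interval from limma voom for the 32 isoacceptors with at least 500 counts over the 6 libraries. Tyr-GTA at −0.54 and Ser-TGA at −1.29 are coloured as called higher in HEK293, and Leu-CAA lies at −0.07.

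The share of all counts that fell on tRNA loci was 82.6%, 85.6% and 82.7% in HEK293 and 75.5%, 77.9% and 80.7% in HAP1. Each HAP1 library was below each HEK293 library, and the means were 83.6% ± 1.73 and 78.0% ± 2.62 (SD, n = 3), a difference of −5.61 percentage points. The two-sided exact permutation p was 0.1, the smallest that 3 libraries against 3 can give. Scaling to tRNA counts in place of all counts therefore moves every log2 difference up by 0.10. The share leaves out the tested positions outside tRNA, many of which match a tRNA end (below). Those positions held 9.18%, 6.54% and 9.21% of the counts in HEK293 and 14.1%, 10.2% and 9.59% in HAP1. Whether their cDNAs came from tRNA was not tested.

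Of the counts at bases 53, 54 and 58 of the tRNA loci, leaving out counts at other bases, the share at base 58 was 21.7%, 22.4% and 17.3% in HEK293 and 24.0%, 21.2% and 23.8% in HAP1. The means were 20.5% ± 2.78 and 23.0% ± 1.56, the ranges overlapped, and the exact permutation p was 0.3. With every locus weighted equally the difference changed sign, from 2.55 to −1.57 percentage points (exact p = 0.5). Single isoacceptors went in opposite directions. Of 26 isoacceptors with at least 100 counts at these bases in each library, 4 had a higher and 5 a lower base 58 share in HAP1 with no overlap of libraries.

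Leu-CAA had the largest difference in base 58 share among the 26. The share was 20.7%, 21.6% and 17.5% in HEK293 and 36.2%, 34.5% and 36.0% in HAP1, on average 15.6 percentage points higher in HAP1 (19.9% ± 2.16 against 35.6% ± 0.93, SD, n = 3, exact permutation p = 0.1, adjusted over the 26 to 0.289). The shift was seen at the separate copies: the mean was higher in HAP1 at 5 of 5 copies, and 4 of the 5 did not overlap. Over the 69 loci with at least 50 such counts in each library, 12 were higher and 8 lower in HAP1 with no overlap. The share was 13.5% against 29.9% at tRNA-Leu-CAA-1-2, which was not called by its level, and 12.3% against 23.3% at tRNA-Leu-CAA-2-1, 20.9% against 30.4% at tRNA-Leu-CAA-3-1 and 34.9% against 48.0% at tRNA-Leu-CAA-4-1. At tRNA-Leu-CAA-1-1 it was 34.2% against 39.4% with overlapping libraries. The other isoacceptors with a higher share in HAP1 and no overlap were Ala-AGC (11.4% against 22.6%), Ala-TGC (23.1% against 30.5%) and Leu-CAG (30.5% against 34.6%). A lower share in HAP1 with no overlap was found for Ser-AGA (58.9% against 50.5%), Ser-GCT (36.1% against 29.1%), Ile-TAT (15.4% against 8.54%), Phe-GAA (14.01% against 9.67%) and Asp-GTC (2.37% against 0.822%). None of these reached an adjusted p below 0.05, which this number of libraries does not allow.

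**Figure D4:**
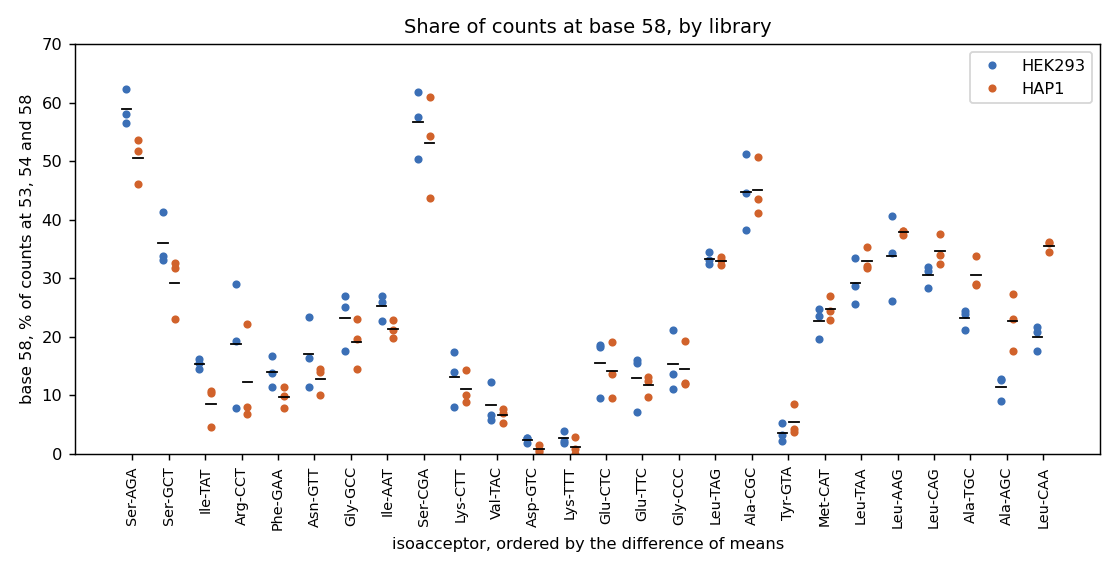
Percent of the counts at tRNA bases 53, 54 and 58 that lay at base 58, for the 26 isoacceptors with at least 100 such counts in each library; every point is a FICC-Seq library of HEK293 or HAP1. The HAP1 points of Leu-CAA lie between 34.5% and 36.2%, above the HEK293 points between 17.5% and 21.6%.

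Outside tRNA, positions with counts in one cell line and few or none in the other were found on both sides. Of 424 positions tested, 144 were called (34.0%), 52 higher in HEK293 (12.3%) and 92 higher in HAP1 (21.7%), and 218 (51.4%) did not overlap, beside 43.4% over all features. The count and its split rested on the HEK293 libraries and on the filter of 10 counts. With no filter, 152 of 7522 positions were called higher in HEK293 and 130 in HAP1. Without HEK293 replicate 1 there were 38 called positions, 19 in each direction, without replicate 2 there were 60, 38 higher in HEK293 and 22 in HAP1, and without replicate 3 there were 41, 22 and 19. By annotation, 274 positions lay where no gene is annotated on their strand, with 33 called higher in HEK293 and 63 in HAP1, and 133 lay in introns, with 18 and 25. In addition, 21 tRNA genes found by sequence outside the listed clusters held 2 called features, 9.52%, both higher in HEK293.

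The position with the smallest adjusted p was in an intron of CCDC148, a coiled-coil protein gene, at chromosome 2 position 159276248 on the minus strand. It held 0 counts in each HEK293 library and 162, 145 and 152 in HAP1, at least 99.6-fold higher in HAP1 against the limit of 3 counts over the HEK293 group (adjusted p = 1.75e-05 by limma voom). In HAP1 iCLIP it held 40, 19 and 13 counts. Another intronic position, in the antisense transcript SAMD12-AS1 on chromosome 8, held 0 counts in HEK293 and 145, 140 and 92 in HAP1, at least 81.8-fold higher (adjusted p = 6.31e-05).

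A further 5 positions among the 8 with the smallest adjusted p toward HAP1 lay where no gene is annotated on the strand and held 0 counts in all HEK293 libraries. At chromosome 1 position 111582467 (plus) the HAP1 libraries held 97, 91 and 66 counts, at least 55.1-fold higher. At chromosome 13 position 80157697 (plus) they held 81, 59 and 54, at least 42.1-fold higher, and at chromosome 17 position 55476496 (minus) 60, 61 and 56, at least 38.4-fold higher. All HAP1 libraries of these 3 held over 50 counts. At chromosome 5 position 138466985 (plus) they held 47, 54 and 39, at least 30.4-fold higher, and at chromosome 11 position 42150460 (plus) 25, 27 and 35, at least 18.9-fold higher. The last of the 8, chromosome 9 position 24031815 (minus), held 1, 0 and 0 counts in HEK293 and 52, 46 and 51 in HAP1 (log2 5.45, SE 0.69, adjusted p = 0.000152 by limma voom).

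The bases that follow these positions in the RNA direction are shown for 7 of the 8 because they resemble the end of tRNA genes, and the bases at SAMD12-AS1 are not shown. Each is compared over 20 bases with the tRNA gene most like it, and the bases identical to it are in capitals.
chr2:159276228-159276247, minus strand, against tRNA-Leu-CAA-1-1: ATCCCctTTCTcACACATAC
chr13:80157698-80157717, plus strand, against tRNA-Leu-CAA-1-1: ATCCCtCTTCaaACACATAC
chr1:111582468-111582487, plus strand, against tRNA-Leu-CAA-4-1: ATCCCACTTCTGAgtCATTC
chr17:55476476-55476495, minus strand, against tRNA-Leu-CAA-4-1: ATCtCcCTTCTcACcCATTC
chr5:138466986-138467005, plus strand, against tRNA-Leu-CAA-4-1: ATCCCACTcCTGcCACATTC
chr9:24031795-24031814, minus strand, against tRNA-Leu-CAA-4-1: gTCCCACTTCTGcCACATTC
chr11:42150461-42150480, plus strand, against tRNA-Leu-CAA-4-1: ATaCCACTTCTGtCACATTC
All 7 begin at the base after base 58 of Leu-CAA and run on into the trailer of 1 of the copies that were higher in HAP1. With up to 4 mismatches in 20 bases, 84 of the 92 positions higher in HAP1 (91.3%), 23 of the 52 higher in HEK293 (44.2%) and 236 of the 280 not called (84.3%) matched a tRNA end, either the gene with its trailer or the mature form with CCA. When the window was moved 30 bases downstream, 0, 0 and 1 positions matched. Leu-CAA was the best match for 49, 4 and 94 of the positions. The match was aligned to base 58 at 54, 7 and 115 positions and to base 53 or 54 at 28, 15 and 114. At 61, 10 and 131 positions the bases were closer to the gene with its trailer than to the mature tRNA with CCA. The order of the groups depended on the number of mismatches allowed. With up to 3 mismatches, 66.3% of the positions higher in HAP1, 30.8% of those higher in HEK293 and 68.6% of those not called matched. With up to 2 mismatches the shares were 27.2%, 13.5% and 35.7%. This comparison was chosen after the data were seen, and where the cDNAs at these positions were transcribed from was not tested.

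Positions at 0 in one cell line made up most of those higher in HAP1. Of the 92, 59 held 0 counts in all 3 HEK293 libraries and at least 1 count in each HAP1 library, with 10 to 459 counts over the HAP1 group (median 21). These 59 were picked and passed the filter of 10 counts through HAP1 counts alone. The HAP1 group was also deeper, with 104694 counts in all against 68132 in HEK293. Their number therefore cannot be set against that of positions at 0 in HAP1. The bounds of the 59 ran from at least 2.17-fold to at least 99.6-fold higher, with a median of 4.56-fold. Of the 59, 52 were also at 0 in HEK293 iCLIP, and 49 at 0 in HEK293 iCLIP and miCLIP alike. In HAP1 iCLIP, 45 held counts, 17 of them in all 3 libraries. A 0 over the HEK293 iCLIP group has an upper limit of 92.5 CPM, so it excludes little at positions of few counts. Only 70 of the 280 positions not called held 10 iCLIP counts, and the share of all positions at 0 is not given here. Together the 59 took 3.81%, 2.83% and 2.24% of the counts of the HAP1 FICC-Seq libraries and 1.38%, 1.14% and 1.14% of the HAP1 iCLIP libraries. In HEK293 iCLIP they took 0.195%, 0.113% and 0.0143%, and in miCLIP 0.00256% and 0.00765%. The FICC-Seq values chose these positions, so only the iCLIP and miCLIP values are independent of that choice. With up to 4 mismatches, 52 of the 59 matched a tRNA end. A Leu-CAA gene was the best match at 31 of these, tRNA-Leu-CAA-1-1 at 15 and tRNA-Leu-CAA-4-1 at 12.

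**Figure D5:**
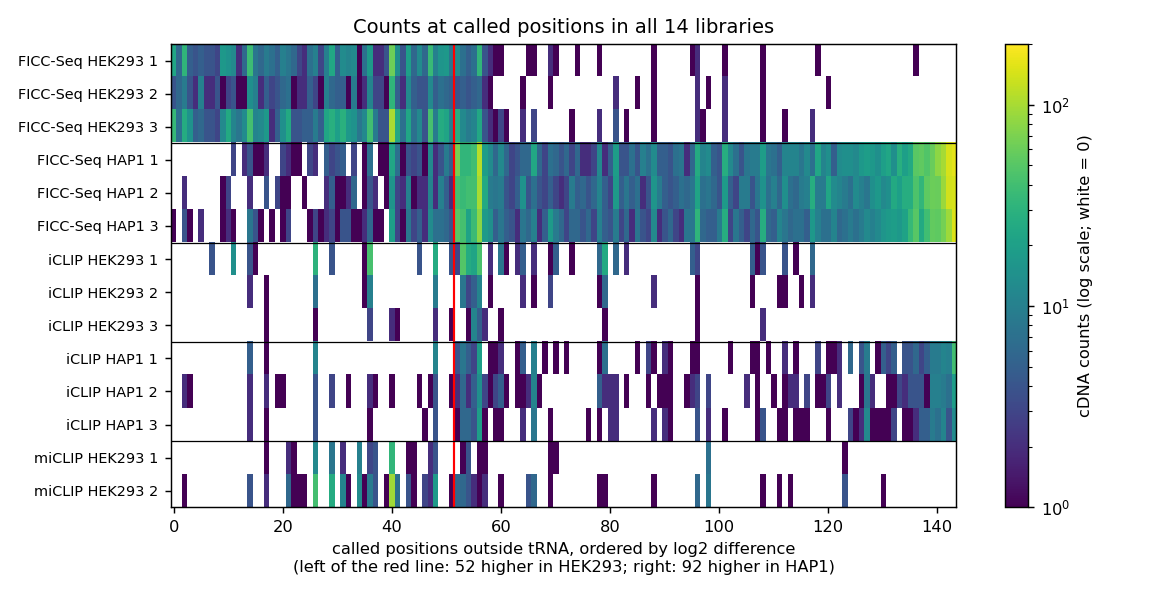
Counts at the 144 called positions outside tRNA (columns) in the 14 libraries (rows: FICC-Seq, iCLIP and miCLIP), on a log colour scale with white for 0. The red line separates the 52 columns higher in HEK293 from the 92 higher in HAP1. Most of the columns of the 92 are white in the HEK293 FICC-Seq rows, 59 of them in all 3.

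Of the 52 positions higher in HEK293, 6 held 0 counts in all 3 HAP1 libraries, with 10 to 19 counts in HEK293. These 6 passed the filter through HEK293 counts alone, in the cell line with fewer counts in all. The position at chromosome 22 position 24135230 (minus) held 62, 32 and 101 counts in HEK293, 23, 16 and 20 in HAP1 and 33 and 94 in miCLIP (log2 −2.29, adjusted p = 0.00102 by limma voom). It was higher in each HEK293 library than in any HAP1 library once scaled to the library total.

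Among the positions at 0 in HAP1, chromosome 2 position 155540177 (minus) held 6, 6 and 7 counts in HEK293 and 0 in each HAP1 library, at least 9.73-fold higher in HEK293 (adjusted p = 0.00102). Its following bases differ from those of tRNA-Val-TAC-3-1, a locus that was itself higher in HEK293, at 1 of 20 bases, the base in lower case.
chr2:155540157-155540176, minus strand, against tRNA-Val-TAC-3-1: TTCAAGCtCCAGTGGAACCA

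An intronic position of the long non-coding RNA LINC00861 on chromosome 8 held 38, 14 and 42 counts in HEK293 against 4, 2 and 8 in HAP1, with no overlap in CPM (log2 −3.34, adjusted p = 0.00102 by limma voom). Chromosome 13 position 47557749 (plus) held 32, 9 and 26 counts against 0, 2 and 4 (log2 −4.11, adjusted p = 0.00139), and chromosome 5 position 178157504 (plus) held 23, 4 and 35 against 0, 0 and 1 (log2 −5.19, adjusted p = 0.0016). The remaining 3 of the 8 were chromosome 6 position 141335327 (plus), with 5, 4 and 15 counts against 0, 0 and 1, chromosome 17 position 67457117 (minus), with 4, 2 and 5 against 0, and an intron of BCAS3 at chromosome 17 position 59446950 (plus), with 10, 6 and 14 against 3, 1 and 1.

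The positions outside tRNA with the highest levels were, apart from CCDC148, not called. Chromosome 1 position 171570091 (minus) held 69, 47 and 95 counts in HEK293 and 75, 84 and 114 in HAP1 (adjusted p = 0.493 by limma voom). Chromosome 1 position 228308859 (plus) held 71, 30 and 71 against 97, 115 and 93 (0.597), and chromosome 2 position 34902758 (minus) held 91, 45 and 70 against 63, 66 and 72 (0.104). A position in an L1MB3 repeat of chromosome 6, 119045617 (minus), held 51, 37 and 54 against 95, 86 and 95 (0.416). The cell lines overlapped in CPM at both positions of chromosome 1 and not at the other two.

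The study listed 70 clusters of other types. In these clusters lay 56 tested positions, 4 higher in HEK293 and 5 in HAP1, beside 12.3% and 21.7% over all positions outside tRNA. Positions in clusters typed as mRNA had 3 and 1 called of 27, those in LINEs 0 and 1 of 9, and those in SINEs 1 and 0 of 7. Positions in a DNA transposon had 0 and 2 of 2, both within the same Tigger1 repeat. Of 8 tested positions in clusters typed as ncRNA, 0 were called by limma voom, 0 by limma trend, and 0 had an unadjusted p under 0.05. Their adjusted p ran from 0.131 to 0.943, and 1 cluster typed as snRNA had too few counts to be tested. The cluster typed as rRNA, a small-subunit rRNA repeat in an intron of ANKRD30BL at chromosome 2 position 133011939 (minus), held 0 counts in each HEK293 library and 2, 5 and 5 in HAP1 (adjusted p = 0.0302). That call was lost when any 1 HEK293 library was left out (adjusted p = 0.227, 0.177 and 0.178 without replicates 1, 2 and 3). In iCLIP the same position held 25, 6 and 1 counts in HEK293 and 7, 2 and 0 in HAP1.

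The iCLIP libraries give a reading of the same loci with no 5FU and were not used in the calls. Of the 17 tRNA loci called higher in HAP1 by FICC-Seq, 16 had a higher mean CPM in HAP1 in iCLIP, 6 of them with no overlap. Of the 26 called higher in HEK293, 16 had a higher mean in HEK293 iCLIP (3 with no overlap) and 10 in HAP1 iCLIP (1 with no overlap). Of the 168 loci not called with at least 10 iCLIP counts, 59 were higher in HEK293 iCLIP and 109 in HAP1 iCLIP, 1 and 15 of them with no overlap. Outside tRNA, 22 of the positions higher in HAP1 held at least 10 iCLIP counts, and 17 of these were higher in HAP1 iCLIP, 10 with no overlap. Only 5 positions higher in HEK293 had that many iCLIP counts, 4 of them higher in HEK293 iCLIP, 1 with no overlap. Of 70 such positions not called, 37 were higher in HEK293 iCLIP and 33 in HAP1 iCLIP, 6 and 8 of them with no overlap. The iCLIP libraries are shallower, with 32421 counts over the 3 HEK293 and 28469 over the 3 HAP1 libraries.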

How the data were processed

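The authors deposited for each library a signed score, the whole number of cDNA counts at a position with the strand as its sign; absolute values were used. Per the study's methods, the iCount web server removed PCR duplicates by 5 random barcode bases and mapped reads to hg19 with bowtie. Only uniquely mapping reads were kept, so reads shared by identical tRNA copies are absent. Peak lists and the authors' comparisons were not used.

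A tRNA locus was the region within 100 nt of listed tRNA clusters on the same strand, with clusters under 40 nt apart joined. Other positions were the highest within 3 nt of the counts summed over the 6 FICC-Seq libraries, summed over 1 nt on either side. Base 54 was read from the T-loop sequence of GRCh37, and gene names came from GENCODE lifted to that build. Features with at least 10 counts were fitted together by limma voom (limma 3.58.1, R 4.3.3) with library totals, isoacceptor sums in a table of their own, both with Benjamini-Hochberg adjustment. As the values are signed, limma voom replaced the planned edgeR test, and the planned TMM and DESeq2 settings were not run. Median-of-ratios size factors and limma trend on log2(CPM + 20) were added after the data were seen. Shares were tested by exact permutation of libraries (scipy 1.17.1). The fit was tested on simulated counts with a single fixed dispersion, which was chosen and not estimated from these libraries, and with libraries drawn independently. Under that setting it called 72.8% of 4-fold and 31.2% of 2-fold changes, and 0.461% of unchanged features. These rates need not hold for the real libraries. A feature that was not called may therefore still differ.

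No pair of replicates was within sampling noise (chi-square per degree of freedom 2.01 to 5.70), the closest being HEK293 replicates 1 and 3, which the labels give the same in-line barcode. Samples with the same number in their titles deviated together for numbers 1 and 2 (correlations 0.45 and 0.55 over 202 features) and less so for number 3 (0.15). HEK293 replicate 3 was closer to HAP1 replicate 1 (0.37). All other pairs of unlike numbers were at most 0.005. The numbers were used as pairs only in the replicate block setting, and the main calls and permutation tests were unpaired. Named loci and positions were the 8 with the smallest adjusted p in each direction and the 5 with the highest CPM, with the listed ncRNA, rRNA and snRNA clusters; named isoacceptors were those called and the 5 highest. Members and lists were chosen with earlier results of these data known.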

Additional observations from a re-analysis of the deposited data

How the results depend on the processing

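The number of called tRNA loci was 43 and ranged from 20 to 46 when 1 library was left out, and from 38 to 51 in the other settings. Called positions outside tRNA were 144, 282 with no filter on counts, 70 with at least 30 counts, and 38 to 157 when 1 library was left out. With no filter the direction of the split changed, with 152 higher in HEK293 and 130 in HAP1, against 52 and 92 in the main fit. The median log2 difference was then −0.20, against 0.37 in the main fit. At least 30 counts gave 26 and 44. Called isoacceptors were 2, but 1 with tRNA counts as library size and 1 with median-of-ratios size factors, and 0 to 3 when 1 library was left out. With the replicate number as a block, 51 loci, 183 positions and 2 isoacceptors were called, among them all 43 loci, 144 positions and 2 isoacceptors called without it, and the call of tRNA-Met-CAT-6-1 (log2 −0.24, adjusted p = 0.0369) was the only one of the 43 named features that the block changed. The difference in tRNA share kept its sign, from −6.96 to −4.34 percentage points without 1 library. The base 58 share difference was 0.955 to 3.53 percentage points without 1 library and −1.57 with loci weighted equally. Median-of-ratios size factors moved all log2 differences by 0.12 and tRNA counts as library size by 0.10 relative to the library total (scaling differences of −0.119 and −0.100), so Leu-CAA took 0.0625 and 0.0386, and tRNA-Leu-CAA-1-2 took 0.0113 with the former. The cause of the changed counts without 1 library was not tested beyond the smaller number of samples. Counting error limits features with few counts, and identical tRNA copies cannot be told apart beyond the bases in which they differ.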

Other observations

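Replicate 2 of both cell lines held more of several tRNAs that had few counts elsewhere. Of 46 isoacceptors, 18 had their highest CPM in replicate 2 of HEK293 and also of HAP1, against 2 for replicate 1 and 5 for replicate 3. Trp-CCA, a tryptophan tRNA, held 0, 29 and 0 counts in HEK293 replicates 1, 2 and 3 and 1, 78 and 0 in HAP1. Thr-AGT held 0, 25 and 2 counts in HEK293 and 3, 63 and 10 in HAP1, and Cys-GCA held 50, 98 and 54 and 35, 217 and 63. These isoacceptors were named after their values were seen, and the labels give both replicate 2 libraries the same in-line barcode, whose part in these values was not tested.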
